A study of Danio rerio with 12 samples.

Results

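The respiratory chain genes described here code for the subunits of complexes I to V, for cytochrome c, and for assembly factors and inhibitors that carry the same symbols. They were chosen by gene symbol (nduf, sdha to sdhd, uqcr, cox4 to cox8, atp5, cyc1, cycs and the mitochondrial nd, co, cyb and atp genes) with a minimum of 10 counts in at least 3 libraries. The symbols matched 124 of the 32520 genes counted. Of these, 120 passed the minimum, 107 of 111 nuclear genes and 13 of 13 genes of the mitochondrial DNA. The 4 that did not pass, cycsa, ndufa4l2b, NDUFB4 and NDUFS1, had at most 1 count in any library. Symbols are spelled as the table of gene names has them, in capitals or lower case, so that COX6A1 and cox6a1 are different genes, and genes that share a symbol carry their Ensembl identifier.

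RNA was sequenced from ventricles of adult zebrafish of the AB background, with 3 libraries in each of 4 groups: wild type after sham surgery (WT sham), wild type 7 days after removal of the ventricular apex (WT 7dpa), and the mvp mutant after the same procedures (mvp mutant sham and mvp mutant 7dpa). Ventricle tissue below the surgery plane was taken. The mutant is a single CRISPR-Cas9 allele that lacks the coding region of mvp, the gene of the major vault protein. The study's methods give the mutant hearts as mvp-/-, homozygous for the deletion. The study asked whether the loss of mvp changes the transcription of the regenerating heart. The study's methods state biological replicates for its experiments as a whole, but how hearts were divided among these libraries is not given in the sources used here. The p-values measure the spread between these libraries, which may in part be technical.

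Library totals ranged from 21356163 to 26684651 counts. Levels are given in CPM, counts relative to the size of the library, on library sizes scaled by TMM, an edgeR method that sets the bulk of genes to no change, and 3 counts stand for 0.112 to 0.140 CPM. MVP itself was at 136 to 193 CPM in wild-type libraries, 4.67 to 5.40 CPM in mvp mutant sham and 16.6 to 19.4 CPM in mvp mutant 7dpa libraries. The study reports no mvp mRNA in knockout embryos, by qPCR and in situ hybridization. Its discussion calls the mRNA undetectable in knockout animals and proposes that the allele is a true null. Here MVP had 91 to 108 counts in mvp mutant sham and 429 to 475 counts in mvp mutant 7dpa libraries, above 3 counts. The source of these reads was not tested. The library WT 7dpa replicate 1 stood apart from the other replicates of its group: the biological coefficient of variation was 26.6% in WT 7dpa and 4.77% to 7.89% in the other groups. Markers of heart muscle were abundant in every library, with 7 of 12 listed names found and a summed level of 53198 to 61591 CPM in WT sham, 47651 to 57314 CPM in WT 7dpa, 61999.5 to 67658 CPM in mvp mutant sham and 48079 to 49402 CPM in mvp mutant 7dpa libraries. Summed markers of other cells differed with injury and genotype, and the genes of a list did not all go the same way. In the mutant after sham surgery, edgeR called 4 fibroblast and epicardium markers higher and 2 lower at an adjusted p under 0.05. It called 4 macrophage markers higher and 1 lower there, against 25.3% and 24.2% of all genes. The 6 of 8 fibroblast and epicardium markers found summed to 210.0 to 249 CPM in WT sham, 386 to 406 CPM in mvp mutant sham, 920 to 1776 CPM in WT 7dpa and 1129 to 1159 CPM in mvp mutant 7dpa libraries. Macrophage markers (11 genes) summed to 18.2 to 21.8, 45.8 to 54.8, 73.7 to 228 and 84.7 to 90.5 CPM in the same order, and 1 of them was at 0 in WT sham libraries. Red blood cell markers (3 of 6 listed names found) summed to 148 to 196 CPM in WT sham, 167 to 511 CPM in WT 7dpa, 243 to 257 CPM in mvp mutant sham and 519 to 575 CPM in mvp mutant 7dpa libraries. The WT sham and WT 7dpa sums of these overlapped. Endothelium and endocardium markers (3 of 5 found) went down with injury. They summed to 272 to 300, 221 to 230, 306 to 337 and 239 to 260 CPM in the same order. Neutrophil and skeletal muscle markers, 1 gene found each, were at or under 1.64 CPM. The part of these cells in the results was not tested, and in bulk tissue fewer cells of a type cannot be told apart from less RNA per cell.

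The respiratory chain passes electrons from NADH and succinate through complexes I, II and III and cytochrome c to oxygen at complex IV, and complex V uses the resulting proton gradient to make ATP. Most subunits are encoded in the nucleus and imported, while a small core of membrane subunits of complexes I, III, IV and V is encoded in mitochondrial DNA and transcribed as long joint transcripts inside the organelle. Heart muscle is rich in mitochondria and draws most of its ATP from this pathway, so these transcripts are among the most abundant in the tissue.

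The mitochondrially encoded genes set WT sham hearts apart from the other 3 groups. They took 14.6%, 14.9% and 15.1% of all counts in the WT sham libraries, 13.5%, 10.8% and 10.7% in WT 7dpa, 10.6%, 10.6% and 10.3% in mvp mutant sham, and 10.6%, 10.5% and 10.5% in mvp mutant 7dpa libraries. Every WT sham library was above all 9 others, and WT 7dpa replicate 1 lay between them and the rest. The 107 nuclear members showed no such split, with shares of 4.01%, 4.28% and 3.78% in WT sham, 5.17%, 4.30% and 4.42% in WT 7dpa, 4.06%, 4.16% and 4.35% in mvp mutant sham, and 3.95%, 3.97% and 4.15% in mvp mutant 7dpa libraries. The WT 7dpa libraries lay above those of WT sham and of mvp mutant 7dpa, the other groups overlapped, and WT 7dpa replicate 1 had the highest share of the 12 libraries.

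The ratio of mitochondrial to nuclear member counts within a library needs no scaling between libraries. It was 3.64, 3.49 and 3.99 in WT sham, 2.61, 2.52 and 2.43 in WT 7dpa, 2.60, 2.55 and 2.36 in mvp mutant sham, and 2.68, 2.65 and 2.52 in mvp mutant 7dpa libraries. WT sham libraries, at 3.49 to 3.99, were all above the other 9, which lay between 2.36 and 2.68 and whose 3 groups overlapped. By this ratio WT 7dpa replicate 1, at 2.61, lay within the range of its neighbours. The mean log2 ratio was 1.89 ± 0.10 (SD, n = 3) in WT sham, 1.33 ± 0.05 in WT 7dpa, 1.32 ± 0.07 in mvp mutant sham and 1.39 ± 0.05 in mvp mutant 7dpa. The ratio thus fell 1.47-fold with injury in the wild type and was 1.48-fold lower in the mutant than in the wild type after sham surgery. The log2 difference was 0.06 with injury in the mutant and 0.05 between genotypes at 7dpa, about the size of the SDs. These ratios are a description over chosen genes and carry no p. Abundant genes weigh most in them. In WT sham, MT-CYB and the MT-CO genes had means of 63607 and 81493 CPM, out of 170247 CPM for the mitochondrial sum. Complex V subunits had 24122 CPM there, out of 46120 CPM for the nuclear sum.

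**Figure D1:**
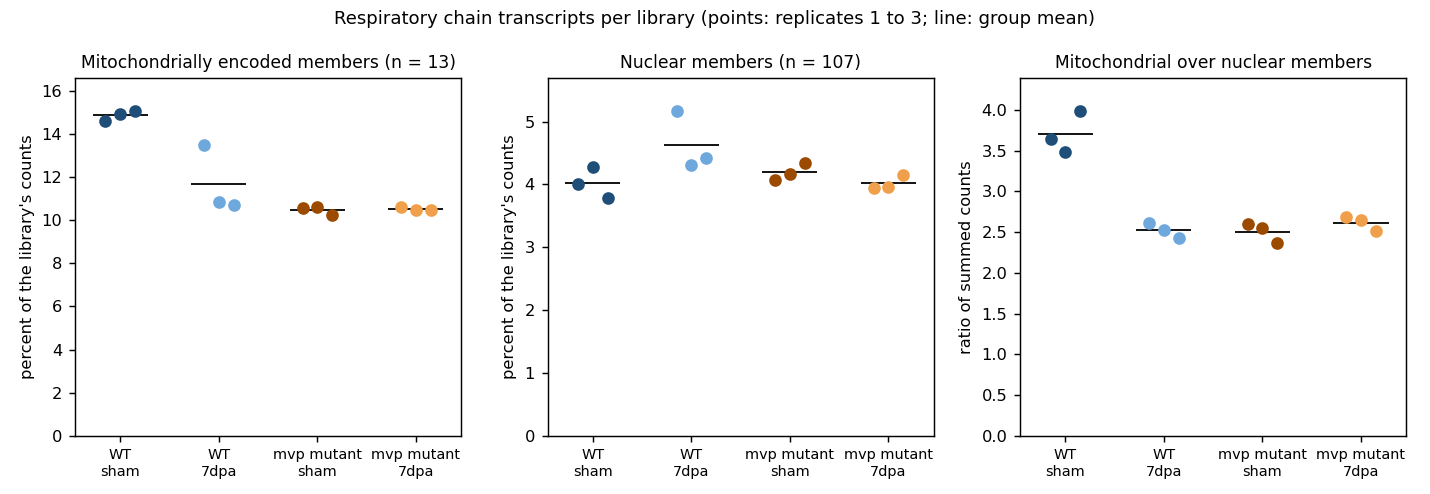
Share of each library's counts from the 13 mitochondrially encoded members (left, percent) and the 107 nuclear members (middle, percent), and the ratio of their summed counts (right), for 3 libraries in each group; points are replicates 1 to 3 and lines are group means. WT sham libraries have a ratio of 3.49 to 3.99, above the 2.36 to 2.68 of the other 9 libraries.

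Gene by gene, all 13 mitochondrially encoded members were lower at 7dpa than after sham surgery in the wild type at an adjusted p under 0.05 (quasi-likelihood test of edgeR, adjusted by Benjamini and Hochberg over 16604 genes, as for every adjusted p here). In this comparison 59.4% of all genes were called, 31.6% higher and 27.8% lower. All 13 were also lower in mvp mutant sham than in WT sham, where 49.5% of genes were called, 25.3% higher and 24.2% lower. These comparisons share the WT sham libraries and are not independent. The median log2 fold change of the 13 was -0.78 in the first and -0.73 in the second, while that of all genes was 0.01 and -0.00. Scaling by library totals alone moved the all-gene median to 0.40 for injury in the wild type and left 12 of the 13 genes lower, with a median of -0.39, and it left all 13 lower between genotypes after sham surgery.

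In the mvp mutant, 2 of the 13 genes, MT-CYB and MT-CO1, fell with injury, where 26.3% of all genes were called, 12.9% higher and 13.4% lower. By library totals alone these 2 calls ended and MT-ND2 and MT-ATP6 rose, and DESeq2's Wald test called 3 of the 13 lower, MT-CO2 as well as these 2. Without WT 7dpa replicate 1, 7 of the 13 were called lower with injury in the mutant: MT-ND4, MT-ND5, MT-ND6, MT-CYB, MT-CO1, MT-CO2 and MT-CO3. Between genotypes at 7dpa, where 19.5% of all genes were called, 8.94% higher and 10.6% lower, edgeR and DESeq2 each called 0 of the 13, and 1, MT-ND3, had an unadjusted p under 0.05. Without WT 7dpa replicate 1, 3 of the 13 were called higher in the mutant, MT-ND2, MT-CO1 and MT-ND3, and by library totals alone MT-CYB was called lower. The response to injury differed between genotypes for 10 of the 13, all with a higher value in the mutant response, in an interaction test where 35.0% of all genes were called, 15.2% higher and 19.9% lower. Without WT 7dpa replicate 1 all 13 were called in it. The shares of all genes called without this library or by library totals alone are not given here.

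MT-ND2, a membrane subunit of complex I, had the largest fall in the wild type. It was at 1844, 1998 and 1782 CPM in WT sham and 1017, 846 and 856 CPM in WT 7dpa libraries. In the mutant, MT-ND2 was at 1011, 1008 and 993 CPM after sham surgery and 966, 907 and 1036 CPM at 7dpa. WT sham levels of MT-ND2 were above all others and the other 3 groups overlapping. Its log2 fold change with injury was -1.05 (SE 0.08, adjusted p = 3.1e-07) in wild-type and -0.05 (SE 0.08, adjusted p = 0.696) in mutant hearts. The MT-ND2 responses differed by 1.0 (SE 0.12, adjusted p = 3.16e-05). The other members of complex I in the mitochondrial DNA are also part of its proton-pumping membrane arm. MT-ND4 was at 7002, 7161 and 6918 CPM in WT sham and 4259, 3224 and 3124 CPM in WT 7dpa libraries. In the mutant, MT-ND4 was at 3624, 3702 and 3548 CPM after sham surgery and 3325, 3324 and 3263 CPM at 7dpa. Its log2 fold change was -0.99 (adjusted p = 2.45e-06) with injury in the wild type and -0.96 (adjusted p = 4.36e-06) between genotypes after sham surgery. MT-ND5 showed the deviation of WT 7dpa replicate 1, with 6164, 3591 and 3637 CPM in that group against 8136, 8422 and 7952 CPM in WT sham, 4842, 4922 and 4541 CPM in mvp mutant sham and 3771, 3698 and 3614 CPM in mvp mutant 7dpa libraries. Its fall in the wild type passed the test (log2 fold change -0.87, adjusted p = 0.000411), and the difference between responses did not (0.50, adjusted p = 0.098). MT-ND1, MT-ND3, mt-nd4l and MT-ND6 had log2 fold changes of -0.77, -0.76, -0.79 and -0.94 with injury in the wild type, and -0.73, -0.47, -0.87 and -0.80 between genotypes after sham surgery, all called. MT-ND6 lies on the other strand of the molecule from the rest, and mt-nd4l overlaps MT-ND4. Whether counting used strand is not given in the sources used here, so reads of overlapping or opposite genes cannot be assigned with certainty.

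MT-CYB, the cytochrome b of complex III, was at 61960.0, 64523 and 64339 CPM in WT sham and 49408, 35542 and 34951 CPM in WT 7dpa libraries. In the mutant, MT-CYB was at 44612, 44759.5 and 41840.5 CPM after sham surgery and 34572, 34684 and 33662 CPM at 7dpa. WT sham was above all others and mvp mutant 7dpa below all others. It fell with injury in both genotypes, by a log2 fold change of -0.67 (SE 0.11, adjusted p = 0.000207) in the wild type and -0.35 (SE 0.11, adjusted p = 0.0346) in the mutant. The MT-CYB responses did not pass the test of a difference (0.32, adjusted p = 0.135). MT-CO1, the catalytic subunit of complex IV, was at 16185, 16908 and 16018 CPM in WT sham and 10953, 8203 and 8078 CPM in WT 7dpa libraries. In the mutant, MT-CO1 was at 12723, 13151 and 12362 CPM after sham surgery and 10294, 9944 and 10369 CPM at 7dpa. It differed least between genotypes after sham surgery among the 13 (-0.36, SE 0.10, adjusted p = 0.00945). MT-CO1 fell more in the wild type (-0.85, adjusted p = 1.23e-05) than in the mutant (-0.32, adjusted p = 0.0321). The MT-CO1 responses differed by 0.53 (adjusted p = 0.012). The calls of MT-CYB and MT-CO1 in the mutant were lost by library totals alone, where the log2 fold changes were -0.08 and -0.05, and when any of the 6 mvp mutant libraries or WT sham replicate 1 was left out. The other core subunits of complex IV, MT-CO2 and MT-CO3, fell by log2 fold changes of -0.78 and -0.61 in the wild type and had -0.23 and -0.18 in the mutant, not called with all libraries and both called lower without WT 7dpa replicate 1.

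MT-ATP6 and mt-atp8 belong to the membrane part of complex V. MT-ATP6 was at 3187, 3626 and 2743 CPM in WT sham and 2528, 1748 and 1760.1 CPM in WT 7dpa libraries. In the mutant, MT-ATP6 was at 1886, 1968 and 1806 CPM after sham surgery and 1955, 1797 and 2081 CPM at 7dpa. The log2 fold changes of MT-ATP6 were -0.66 (adjusted p = 0.000995) in the wild type and 0.04 (adjusted p = 0.848) in the mutant. Its neighbour mt-atp8, which overlaps it, was at 358, 423 and 270.1 CPM in WT sham and 310.1, 233 and 249 CPM in WT 7dpa libraries, which overlapped. Its fall in the wild type was the smallest of the 13 (-0.41, SE 0.15, adjusted p = 0.0286), and the call was lost by library totals alone (-0.02) and without WT sham replicate 1 or 2 or WT 7dpa replicate 2 or 3. Relative to the summed nuclear members of the same library, all WT sham libraries were above all others for 11 of the 13 genes, the exceptions being MT-ND3 and mt-atp8. The share of all genes was not computed on this scale. In TMM-scaled CPM, WT sham was above all others for 18.7% of all genes.

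**Figure D2:**
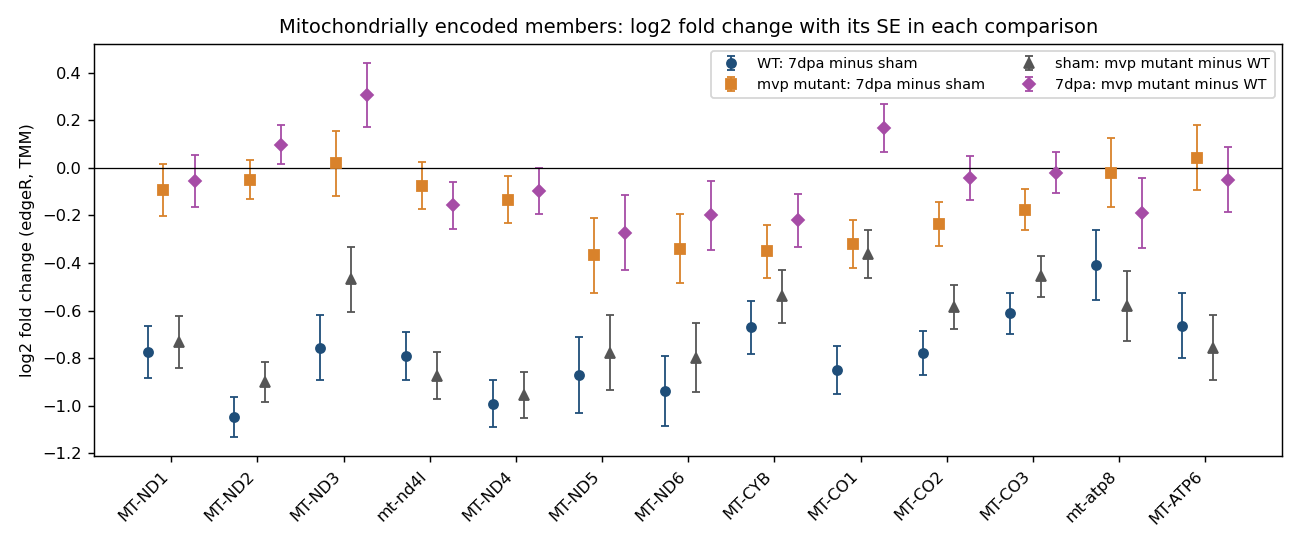
Log2 fold change (edgeR, TMM-scaled counts) with its standard error for each of the 13 mitochondrially encoded members in 4 comparisons of 3 libraries against 3. The comparisons that involve WT sham (circles and triangles) lie between -1.05 and -0.36, and those that do not (squares and diamonds) lie between -0.37 and 0.31; by library totals alone the injury comparisons shift upward, with the all-gene median at 0.40 in the wild type and 0.29 in the mutant.

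The nuclear members changed in both directions. With TMM, 9 of the 107 were higher and 32 lower at 7dpa in the wild type, 4 higher and 38 lower at 7dpa in the mutant, 13 higher and 8 lower in the mutant after sham surgery, and 1 higher and 6 lower in the mutant at 7dpa. The responses differed for 21, with 5 above 0 (a higher value in the mutant response) and 16 below. In percent of the 107, the calls in the wild-type response were 8.41% higher and 29.9% lower, against 31.6% and 27.8% of all genes, and in the mutant response 3.74% higher and 35.5% lower, against 12.9% and 13.4%. Of all genes, 25.3% were higher and 24.2% lower in the mutant after sham surgery, and 8.94% and 10.6% at 7dpa. In the interaction 15.2% of all genes were above 0 and 19.9% below. The median log2 fold changes of the nuclear members were -0.14, -0.22, 0.00, -0.09 and -0.08 in the order of the counts above. The direction of these counts rests on the scaling: by library totals alone, 51 were higher and 7 lower in the wild type and 10 higher and 9 lower in the mutant, with medians of 0.25 and 0.06, since all genes then had medians of 0.40 and 0.29. The shares of all genes called by library totals alone are not given here, so these counts cannot be read as a result about the members. The distance of the nuclear median from that of all genes was -0.15 for wild-type and -0.23 for mutant hearts under either scaling. TMM factors were 0.854 to 0.912 in sham and 1.09 to 1.19 in 7dpa libraries of both genotypes.

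In WT 7dpa replicate 1, 99 of the 107 nuclear members and all 13 mitochondrially encoded ones were at the highest level of their group, as were 7185 of all 16604 genes. Without this library the nuclear counts were 10 higher and 63 lower in the wild type, 7 higher and 56 lower in the mutant, 21 higher and 23 lower between genotypes after sham surgery, and 12 higher and 8 lower between genotypes at 7dpa. The median between genotypes at 7dpa changed from -0.09 to 0.02, so that the direction of that small difference rested on this library. The responses of the genotypes then differed for 40 nuclear members, 18 above 0 and 22 below. SEs of this fit could be smaller, for MT-CO1 in the wild-type response 0.04 against 0.10. The share of all genes called in it is not given here, so these counts cannot be set against the shares above. Of the other libraries, leaving out mvp mutant 7dpa replicate 1 took the nuclear calls between genotypes at 7dpa from 7 to 3, and leaving out mvp mutant sham replicate 2 took those of the interaction from 21 to 13.

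**Figure D3:**
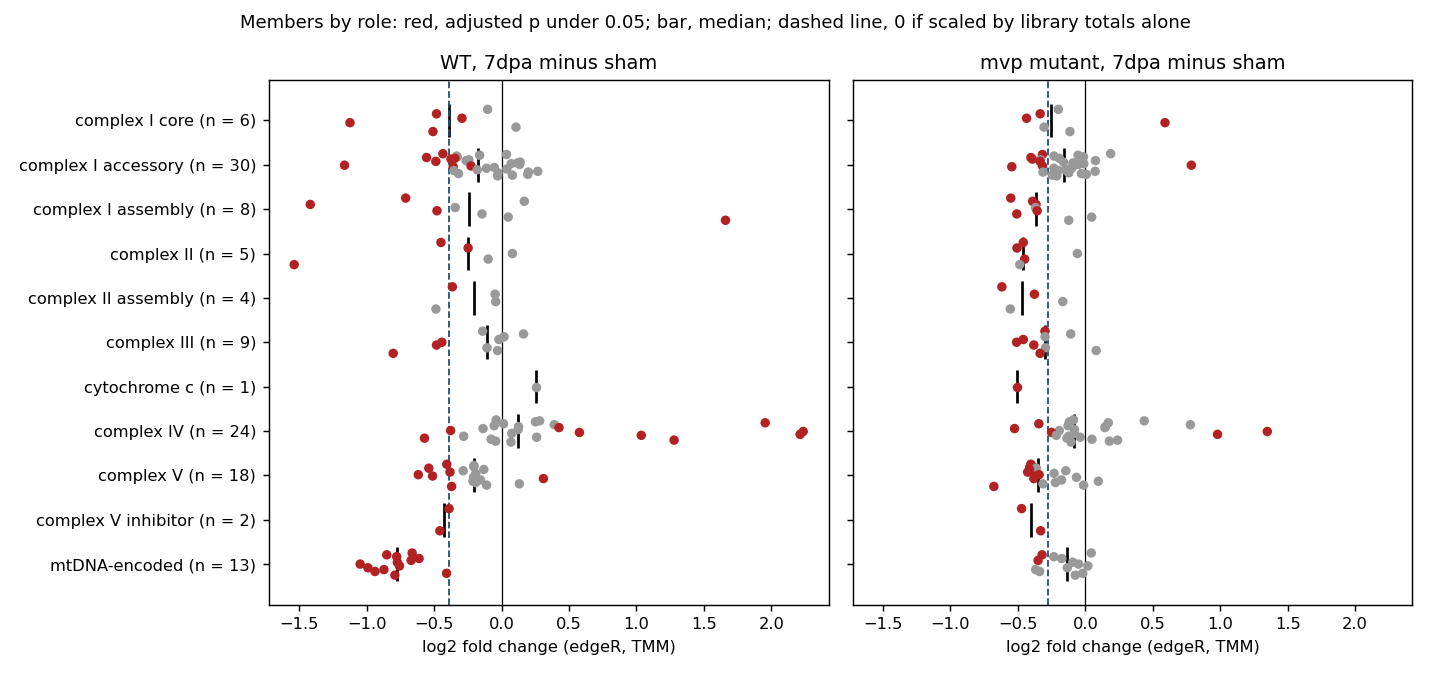
Log2 fold change (edgeR, TMM-scaled counts) from sham to 7dpa of every member, by role, in the wild type (left) and the mvp mutant (right), 3 libraries in each group; each point is a gene, red where the adjusted p is under 0.05, and black bars are medians. The dashed line marks where no change would lie by library totals alone, 0.39 left of 0 in the wild type and 0.27 in the mutant, so that most nuclear genes left of 0 and right of this line change sign with the scaling, while the mitochondrially encoded genes in the wild type lie left of both.

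The counts of calls by complex with TMM that follow stand against the shares of all genes with TMM. With injury these were 31.6% higher and 27.8% lower for wild-type hearts, and 12.9% higher and 13.4% lower for mutant hearts. By library totals alone all genes had median log2 fold changes of 0.40 and 0.29, and the shares called are not given here. Complex I takes electrons from NADH. Its nuclear core subunits, 6 of which were tested, carry its electron path. With TMM 4 were lower at 7dpa in the wild type (2 higher and 1 lower by library totals alone), and 1 was higher and 2 lower in the mutant (1 higher by library totals alone). NDUFS8, an iron-sulfur subunit, differed most. It was at 45.2, 34.3 and 63.2 CPM in WT sham and 26.2, 20.7 and 18.5 CPM in WT 7dpa libraries. In the mutant, NDUFS8 was at 20.4, 15.1 and 18 CPM after sham surgery and 27.8, 24.3 and 28.5 CPM at 7dpa. WT sham levels of NDUFS8 were above all others. NDUFS8 fell in the wild type (-1.12, SE 0.19, adjusted p = 0.000256) and rose in the mutant (0.59, SE 0.20, adjusted p = 0.0421). The NDUFS8 responses differed by 1.71 (SE 0.28, adjusted p = 0.000441). NDUFV1, which binds the flavin, did not pass the test in any comparison. NDUFV1 was at 540.0, 527 and 553 CPM in WT sham and 725, 521 and 498 CPM in WT 7dpa libraries. In the mutant, NDUFV1 was at 615, 624 and 651 CPM after sham surgery and 499.7, 535 and 495 CPM at 7dpa.

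Of the 30 accessory subunits of complex I, which surround the core, 8 were lower in the wild type with TMM (13 higher and 1 lower by library totals alone), and 1 was higher and 6 lower in the mutant (2 higher and 1 lower by library totals alone). By library totals alone the 30 had medians of 0.22 and 0.12, against 0.40 and 0.29 for all genes. NDUFB7, an accessory subunit of the membrane arm, followed the same order of groups as NDUFS8. It was at 563, 667 and 507 CPM in WT sham and 356, 202 and 218 CPM in WT 7dpa libraries. In the mutant, NDUFB7 was at 169, 182 and 182 CPM after sham surgery and 296, 308 and 315 CPM at 7dpa, with mvp mutant sham lowest and WT sham highest. NDUFB7 fell in the wild type (-1.16, SE 0.17, adjusted p = 7.03e-05), rose in the mutant (0.79, SE 0.17, adjusted p = 0.00438), and was 3.26-fold lower in the mutant after sham surgery (-1.70, adjusted p = 3.81e-06). The interaction, 1.95 (SE 0.24, adjusted p = 5.11e-05), was the largest upward difference among the nuclear members. ndufb3, also of the membrane arm, was lower in the mutant after sham surgery (-0.47, SE 0.15, adjusted p = 0.0159), at 67.1, 70.9 and 70.4 CPM against 92.8, 113 and 83.1 CPM. ndufv3, of the matrix arm, was lower in the mutant at 7dpa (-0.58, SE 0.17, adjusted p = 0.0331), at 132, 134 and 145 CPM against 289, 159 and 167 CPM in WT 7dpa libraries, where replicate 1 was the high value.

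The assembly factors of complex I are not part of the finished enzyme. NDUFAF3 was at 117, 109.6 and 128 CPM in WT sham and 41.7, 47.4 and 43.6 CPM in WT 7dpa libraries. In the mutant, NDUFAF3 was at 124, 114 and 131 CPM after sham surgery and 92.3, 97.4 and 97.5 CPM at 7dpa. The sham groups overlapped and WT 7dpa was below all others, replicate 1 included. It fell 2.67-fold in the wild type (-1.42, SE 0.08, adjusted p = 1.41e-08) and less in the mutant (-0.37, SE 0.08, adjusted p = 0.00392), a difference of 1.05 (adjusted p = 1.31e-05). NDUFAF3 was the only nuclear member higher in the mutant at 7dpa (1.11, SE 0.08, adjusted p = 1.28e-06) in the fit of all libraries. NDUFAF8, known in human cells to support the assembly factor NDUFAF5, was at 1.29, 1.27 and 0.824 CPM in WT sham and 4.85, 3.08 and 2.83 CPM in WT 7dpa libraries. In the mutant, NDUFAF8 was at 3.49, 3.08 and 3.56 CPM after sham surgery and 3.02, 2.76 and 3.52 CPM at 7dpa. WT sham levels of NDUFAF8 were below all others. NDUFAF8 rose in the wild type (1.66, SE 0.24, adjusted p = 7.28e-05) and had -0.12 in the mutant (adjusted p = 0.723). The NDUFAF8 responses differed by -1.78 (SE 0.33, adjusted p = 0.00124). NDUFAF1, needed for the membrane arm, fell in both genotypes, from 242, 245 and 245 to 170.5, 137 and 140.4 CPM in the wild type (-0.71, adjusted p = 5.34e-06) and from 234, 228 and 228 to 156, 154 and 159.6 CPM in the mutant (-0.55, adjusted p = 0.000212). Of the 8 assembly factors, 1 was higher and 3 lower in the wild type (4 higher and 2 lower by library totals alone), and 5 were lower in the mutant (2 by library totals alone). By library totals alone the 8 had medians of 0.15 and -0.09, against 0.40 and 0.29 for all genes.

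Complex II, the succinate dehydrogenase, is encoded in the nucleus alone. Of its 5 subunit genes, 3 were lower at 7dpa in each genotype with TMM (against 27.8% and 13.4% of all genes), against 2 higher and 1 lower in the wild type and 2 lower in the mutant by library totals alone. On that latter scale the 5 had medians of 0.15 and -0.19, against 0.40 and 0.29 for all genes. SDHA, the flavoprotein, was at 976, 996 and 914 CPM in WT sham and 729.7, 702 and 682 CPM in WT 7dpa libraries. In the mutant, SDHA was at 889.8, 937 and 971 CPM after sham surgery and 679, 730.2 and 624 CPM at 7dpa, so that sham and 7dpa libraries did not overlap in either genotype. Its log2 fold change with injury was -0.45 (SE 0.07, adjusted p = 0.000137) in wild-type and -0.46 (SE 0.07, adjusted p = 0.000473) in mutant hearts, a difference of -0.01 (SE 0.10, adjusted p = 0.946). The call of SDHA in the wild type was lost by library totals alone (-0.06). SDHB, the iron-sulfur subunit, was at 501, 539 and 495 CPM in WT sham and 431, 435 and 427 CPM in WT 7dpa libraries, and at 543, 575 and 598 CPM in mvp mutant sham and 389.6, 425 and 393 CPM in mvp mutant 7dpa libraries. It fell more in the mutant (-0.51, adjusted p = 0.000104) than in the wild type (-0.25, adjusted p = 0.00474, reversed to 0.15 by library totals alone), with a difference of -0.26 (SE 0.09, adjusted p = 0.0408) that lost its call when any of 8 of the 12 libraries was left out. The membrane anchor SDHC did not pass the test in any comparison. The table holds 2 genes named SDHD, the other anchor. SDHD (ENSDARG00000030139) was at 212, 220.2 and 209 CPM in WT sham and 231, 186 and 182 CPM in WT 7dpa libraries. In the mutant, SDHD (ENSDARG00000030139) was at 225, 230.1 and 235 CPM after sham surgery and 167, 173 and 165 CPM at 7dpa. SDHD (ENSDARG00000030139) fell in the mutant (-0.45, adjusted p = 0.00154, lost by library totals alone) and had -0.10 in the wild type (not called), with a difference of -0.35 between responses (adjusted p = 0.0334). Here too WT 7dpa replicate 1 lay above the WT sham range, and the other WT 7dpa replicates lay below it. SDHD (ENSDARG00000055712) was at 9.18, 9.31 and 7.67 CPM in WT sham and 4.68, 2.12 and 2.20 CPM in WT 7dpa libraries. In the mutant, SDHD (ENSDARG00000055712) was at 6.0, 5.30 and 6.85 CPM after sham surgery and 4.38, 4.25 and 4.33 CPM at 7dpa. SDHD (ENSDARG00000055712) had the largest fall of a nuclear member in the wild type (-1.54, SE 0.24, adjusted p = 0.000137). Reads of near-identical copies may have been split or lost in the counting, so values of genes that share a symbol are uncertain. SDHAF2, which helps attach the flavin to SDHA, fell in both genotypes with TMM (-0.36 in the wild type and -0.62 in the mutant, adjusted p = 0.000288 and 2.07e-05) and was lower in the mutant at 7dpa, at 23.6, 23.2 and 24.7 CPM against 27.7, 29.3 and 26.9 CPM (-0.23, SE 0.06, adjusted p = 0.0231). By library totals alone, 0 of the 4 complex II assembly factors were called lower in the wild type, so the fall of SDHAF2 there was not called.

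Complex III hands electrons to cytochrome c. Of its 9 nuclear subunits, 3 were lower at 7dpa in the wild type (27.8% of all genes) and 5 in the mutant (13.4% of all genes) with TMM, against 5 higher and 1 lower in the wild type and 1 lower in the mutant by library totals alone. On that latter scale the 9 had medians of 0.28 and -0.02, against 0.40 and 0.29 for all genes. uqcrc2a, named for the core protein UQCRC2, was at 433, 437 and 444 CPM in WT sham and 273, 246 and 234 CPM in WT 7dpa libraries. In the mutant, uqcrc2a was at 329, 338 and 360.2 CPM after sham surgery and 266, 279 and 269 CPM at 7dpa. WT sham levels of uqcrc2a were above all others and mvp mutant sham next. uqcrc2a fell in the wild type (-0.80, SE 0.07, adjusted p = 5.47e-07) and less in the mutant (-0.34, adjusted p = 0.00282, lost by library totals alone at -0.06). The uqcrc2a responses differed by 0.47 (SE 0.10, adjusted p = 0.00236). UQCRC1, the other core protein, was at 1696, 1745 and 1673 CPM in WT sham and 1984, 1553 and 1507 CPM in WT 7dpa libraries. In the mutant, UQCRC1 was at 1765, 1843 and 1818 CPM after sham surgery and 1314, 1379 and 1251 CPM at 7dpa. UQCRC1 fell in the mutant (-0.46, adjusted p = 0.00273, lost by library totals alone at -0.18) but not by the test in the wild type (-0.02, adjusted p = 0.869), with a difference of -0.44 (SE 0.13, adjusted p = 0.0194). In WT 7dpa, replicate 1 of UQCRC1 lay above the WT sham range and the other replicates below it. UQCRFS1, the Rieske iron-sulfur protein, fell in both genotypes with TMM (-0.48 and -0.38, adjusted p = 2.84e-05 and 0.000751), and both calls were lost by library totals alone. UQCRC2 fell in both genotypes (-0.44 and -0.51), and its call in the wild type was lost by library totals alone (-0.05). CYC1, the cytochrome c1, fell in the mutant (-0.30, SE 0.09, adjusted p = 0.0265, and -0.02 by library totals alone), and had -0.14 in the wild type, not called.

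cycsb, the only cytochrome c gene with enough counts, was highest in mvp mutant sham hearts. It was at 751, 786 and 778 CPM in WT sham and 1126, 830.0 and 806 CPM in WT 7dpa libraries. In the mutant, cycsb was at 1324, 1275 and 1288 CPM after sham surgery and 896, 854 and 986 CPM at 7dpa. After sham surgery it was 1.68-fold higher in the mutant (0.75, SE 0.11, adjusted p = 8.65e-05). It fell with injury in the mutant (-0.51, SE 0.11, adjusted p = 0.00398, not called by library totals alone) and had 0.25 in the wild type (adjusted p = 0.058). The cycsb responses differed by -0.76 (SE 0.15, adjusted p = 0.00212).

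Complex IV, cytochrome c oxidase, reduces oxygen, and its nuclear subunits often come as isoform genes. With TMM, 7 of 24 genes were higher and 2 lower at 7dpa in the wild type. Of all genes, 31.6% were higher and 27.8% lower with TMM. By library totals alone 18 were higher, with a median log2 fold change of 0.51 against 0.40 for all genes. The shares of all genes called on that scale are not given here. In the mutant after sham surgery 8 of the 24 were higher and 1 lower, against 25.3% and 24.2% of all genes. In the mutant with injury 2 of the 24 were higher and 3 lower with TMM, against 12.9% and 13.4%. By library totals alone 7 were higher and 1 lower there, with a median of 0.19 against 0.29 for all genes. For 6 of the 24 the responses differed, all with a lower value in the mutant, a direction called for 19.9% of all genes. COX5B (ENSDARG00000015978), a copy of the zinc-binding subunit Vb, was at 30.3, 36.5 and 30.5 CPM in WT sham and 149, 111 and 117 CPM in WT 7dpa libraries. In the mutant, COX5B (ENSDARG00000015978) was at 77.9, 71.3 and 81.6 CPM after sham surgery and 80.9, 81.9 and 96.9 CPM at 7dpa. WT sham was below all others, WT 7dpa above all others, and the mutant groups lay between. It rose 3.88-fold in the wild type (1.95, SE 0.12, adjusted p = 3.61e-08) and had 0.17 in the mutant (adjusted p = 0.315). The COX5B (ENSDARG00000015978) responses differed by -1.78 (SE 0.17, adjusted p = 4.74e-06). It was also lower in the mutant at 7dpa (-0.54, adjusted p = 0.00632). Another gene of that name, ENSDARG00000068738, was at 498, 575 and 468 CPM in WT sham and 594, 469.7 and 492 CPM in WT 7dpa libraries, with a log2 fold change of 0.01 (not called). It fell in the mutant with TMM (-0.34, adjusted p = 0.0217). This call was not followed through the other scalings. By library totals alone 1 of the 24 complex IV genes was lower in the mutant, against 3 with TMM. The remaining copy, ENSDARG00000113254, was at 0.698, 0.922 and 0.824 CPM in WT sham and 0.175, 1.08 and 1.94 CPM in WT 7dpa libraries and was not called.

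cox6a1 rose with injury in both genotypes. It was at 2.36, 2.37 and 1.75 CPM in WT sham and 12.1, 8.79 and 9.26 CPM in WT 7dpa libraries. In the mutant, cox6a1 was at 3.28, 4.09 and 4.76 CPM after sham surgery and 7.95, 7.26 and 8.79 CPM at 7dpa. No pair of groups overlapped, although the 7dpa groups met at the digits shown. Its log2 fold change with injury was 2.21 (SE 0.19, adjusted p = 5.25e-07) in wild-type and 0.98 (SE 0.18, adjusted p = 0.00129) in mutant hearts, with a difference of -1.23 (SE 0.26, adjusted p = 0.00257). COX6A1, the gene with the capitalised symbol, was at 1246, 1465 and 1158 CPM in WT sham and 1509.8, 1079 and 1136 CPM in WT 7dpa libraries, and was not called in any comparison. NDUFA4L2, whose mammalian counterpart is induced by low oxygen, was close to the floor in WT sham, at 0.322, 0.747 and 0.515 CPM, and at 4.33, 1.6 and 1.72 CPM in WT 7dpa, 1.28, 1.67 and 1.57 CPM in mvp mutant sham and 3.22, 4.54 and 3.8 CPM in mvp mutant 7dpa libraries. It rose in both genotypes (2.24, SE 0.42, adjusted p = 0.000492 in the wild type, and 1.35, SE 0.36, adjusted p = 0.0139 in the mutant). Its relatives NDUFA4, a subunit found with complex IV in mammals, and ndufa4b differed little, with log2 fold changes of -0.38 (called, and 0.02 by library totals alone) and 0.07 (not called) in the wild type.

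cox6b1, which in mammals links the monomers of the enzyme, was at 301, 349 and 266 CPM in WT sham and 688, 586 and 603 CPM in WT 7dpa libraries. In the mutant, cox6b1 was at 593, 606 and 637 CPM after sham surgery and 512, 521 and 547 CPM at 7dpa. WT sham was below all others. It rose 2.05-fold in the wild type (1.04, SE 0.09, adjusted p = 1.07e-06) and was higher by a like amount in the mutant after sham surgery (1.0, SE 0.09, adjusted p = 1.79e-06). The cox6b1 responses differed by -1.25 (SE 0.13, adjusted p = 1.37e-05). cox8a, a small membrane subunit, was at 9.02, 9.71 and 7.77 CPM in WT sham and 21.6, 21.2 and 21.6 CPM in WT 7dpa libraries. In the mutant, cox8a was at 16.0, 15.9 and 16.4 CPM after sham surgery and 18.1, 18.2 and 20.7 CPM at 7dpa. cox8a rose in the wild type (1.28, SE 0.09, adjusted p = 1.57e-07) with a difference between responses of -1.04 (SE 0.13, adjusted p = 5.88e-05). Its relative cox8b was not called in any comparison.

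cox4i1l, by its name a relative of the regulatory subunit COX4I1, was at 821, 911 and 731 CPM in WT sham and 1270.0, 1206 and 1198 CPM in WT 7dpa libraries. In the mutant, cox4i1l was at 1471, 1510.0 and 1595 CPM after sham surgery and 1248, 1248 and 1351 CPM at 7dpa. WT sham was lowest and mvp mutant sham highest. cox4i1l rose in the wild type (0.58, SE 0.08, adjusted p = 4.38e-05), was 1.86-fold higher in the mutant after sham surgery (0.89, SE 0.08, adjusted p = 1.19e-06) and fell in the mutant with injury (-0.25, adjusted p = 0.0338, reversed to 0.02 by library totals alone). The difference between responses was -0.83 (SE 0.11, adjusted p = 0.000117). COX4I1 had log2 fold changes between -0.09 and 0.00 and COX4I2 between -0.15 and 0.44 over the 4 comparisons of groups, not called. COX5A and cox5aa were not called either. cox7a1, the muscle isoform of its subunit in mammals, went the other way from the genes above: it was at 389, 489 and 320.1 CPM in WT sham and 322, 235 and 249.7 CPM in WT 7dpa libraries, which just overlapped, and fell (-0.57, SE 0.15, adjusted p = 0.00591, not called by library totals alone). COX7A2 (ENSDARG00000110700) rose by 0.43 (adjusted p = 0.0418), a call that DESeq2 did not make, and COX7A2 (ENSDARG00000053217) was not called. COX7A2L, which in mammals takes part in joining complexes III and IV, was higher in the mutant after sham surgery (0.30, adjusted p = 0.0102), at 249, 249 and 248 CPM against 194, 216 and 194 CPM, and fell there with injury (-0.52, adjusted p = 0.000698).

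**Figure D4:**
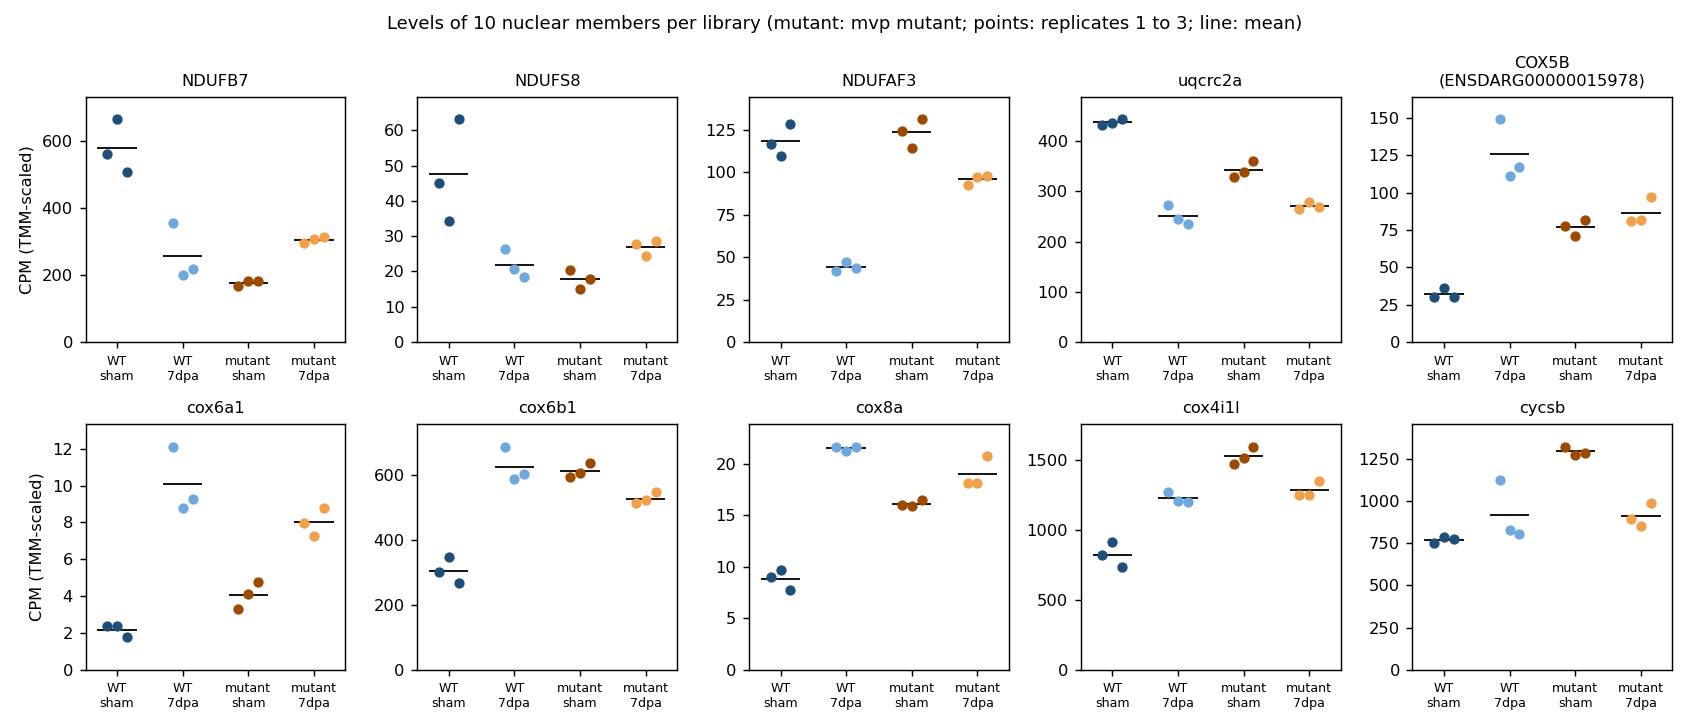
Level in CPM on TMM-scaled library sizes (each vertical axis starts at 0) of 10 nuclear members in the 3 libraries of each group; points are replicates 1 to 3 and lines are means. NDUFB7, NDUFS8 and uqcrc2a are highest in WT sham, COX5B (ENSDARG00000015978), cox6a1, cox6b1, cox8a, cox4i1l and cycsb are lowest there, and NDUFAF3 is lowest in WT 7dpa; scaling by library totals alone lowers WT sham and mvp mutant sham relative to 7dpa and reverses the fall of cox4i1l in the mutant.

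Complex V is the ATP synthase. Of its 18 nuclear subunits, 1 was higher and 6 lower with injury in the wild type (31.6% and 27.8% of all genes), and 9 were lower in the mutant (13.4% of all genes) with TMM, compared with 4 higher and 1 lower in the wild type and 1 lower in the mutant by library totals alone. On that latter scale the 18 had medians of 0.18 and -0.08, against 0.40 and 0.29 for all genes. ATP5F1A and ATP5F1B code for the alpha and beta subunits of the catalytic head. ATP5F1A was at 683, 677 and 723 CPM in WT sham and 501, 538 and 533 CPM in WT 7dpa libraries. In the mutant, ATP5F1A was at 637, 641 and 699 CPM after sham surgery and 493, 510.1 and 491 CPM at 7dpa. ATP5F1A fell in both genotypes (-0.41 and -0.40, adjusted p = 0.000108 and 0.000473, both lost by library totals alone). ATP5F1B was at 14452, 15239 and 12579 CPM in WT sham and 14626, 10943 and 11099 CPM in WT 7dpa libraries. In the mutant, ATP5F1B was at 12786, 13566 and 14119.6 CPM after sham surgery and 10033, 10528 and 10161 CPM at 7dpa. It fell in the mutant (-0.40, SE 0.11, adjusted p = 0.0165, lost by library totals alone) and had -0.21 in the wild type (adjusted p = 0.121), where replicate 1 of WT 7dpa lay within the sham range. atp5mc1, a gene of the membrane ring, was the one of these 18 subunits called higher in the wild type with TMM (0.31, SE 0.11, adjusted p = 0.0228). It was at 599, 700.1 and 538 CPM in WT sham and 879.7, 686 and 712 CPM in WT 7dpa libraries. In the mutant, atp5mc1 was at 696, 753 and 779.6 CPM after sham surgery and 558, 565 and 588 CPM at 7dpa. The atp5mc1 responses differed by -0.69 (SE 0.15, adjusted p = 0.00346). atp5mj, a small subunit of the membrane part, had the largest fall of a nuclear member in the mutant, from 111, 103 and 107 CPM to 65.0, 63.5 and 71.7 CPM (-0.68, SE 0.14, adjusted p = 0.00372).

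The inhibitory factor of complex V, which blocks the reverse reaction when the proton gradient is lost, has 2 genes. atp5if1a was at 133, 159 and 116 CPM in WT sham and 119, 93.9 and 98.4 CPM in WT 7dpa libraries. In the mutant, atp5if1a was at 122, 127 and 139 CPM after sham surgery and 86.8, 91.0 and 102 CPM at 7dpa. atp5if1b was at 611, 699 and 516 CPM in WT sham and 512, 402 and 415 CPM in WT 7dpa libraries. In the mutant, atp5if1b was at 532, 567 and 574 CPM after sham surgery and 452, 424 and 454 CPM at 7dpa. Both were called lower at 7dpa in both genotypes with TMM, by log2 fold changes of -0.39 and -0.46 in wild-type hearts and -0.47 and -0.33 in mutant hearts, and none of these calls held by library totals alone, where atp5if1a in the wild type was at 0.0019.

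WT sham stood outside the range of the other 9 libraries for many genes, not for this pathway alone. Among all genes tested, all WT sham libraries were above all others for 18.7% and below for 19.0%. The nuclear members were under this background, with 13 of 107 above (12.1%) and 9 below (8.41%), while 11 of the 13 mitochondrially encoded genes were above. The 9 nuclear members below were cycsb, NDUFAF8 and 7 genes of complex IV, namely COX5B (ENSDARG00000015978), COX7A2 (ENSDARG00000110700), NDUFA4L2, cox4i1l, cox6a1, cox6b1 and cox8a. The 13 above held 8 genes of complex I or its assembly, 2 of complex III, 2 of complex V and SDHD (ENSDARG00000055712). By library totals alone 4 nuclear members were above (3.74%) and 18 below (16.8%), and 10 mitochondrially encoded genes were above. Of all genes, 10.09% were then above and 27.01% below, so the nuclear members were under this background in each direction. WT sham was not the only group outside the range of the others. With TMM, mvp mutant 7dpa was below all other libraries for 10 nuclear members (9.35%) and above for 0, against 2.99% and 3.72% of all genes. By library totals alone, mvp mutant sham was below for 8 mitochondrially encoded genes (61.5%) and above for 0, against 12.4% and 3.15% of all genes.

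Other genes that serve the pathway were taken from lists, whose counts stand against the same shares of all genes: 31.6% higher and 27.8% lower with injury for wild-type hearts, 12.9% and 13.4% for mutant hearts, and 25.3% and 24.2% between genotypes after sham surgery. Of 14 genes of mitochondrial DNA maintenance and transcription tested, 1 was higher and 5 lower at 7dpa in the wild type and 2 were lower in the mutant, tfb2m (-0.27) and LRPPRC (-0.33), of which neither was called by library totals alone (0.00214 and -0.06). In the mutant after sham surgery 2 were higher and 6 lower. The medians were -0.16, -0.07 and -0.26 in the same order. TWNK, the helicase of mitochondrial DNA, had a mean of 35.8 ± 2.62 CPM in WT sham, 9.89 ± 3.50 CPM in WT 7dpa, 6.96 ± 1.56 CPM in mvp mutant sham and 7.95 ± 0.433 CPM in mvp mutant 7dpa (SD, n = 3). With injury TWNK had a log2 fold change of -1.85 in wild-type hearts (adjusted p = 5.3e-06) and of 0.19 in the mutant (adjusted p = 0.558). mterf3 and MTERF4, of a family that acts in transcription and ribosome assembly in the organelle, were likewise highest in WT sham, with log2 fold changes of -1.74 and -2.05 in the wild type and -1.84 and -2.14 between genotypes after sham surgery, all called. tfb2m went the other way, higher in the mutant after sham surgery (0.36, adjusted p = 0.000369). The tfb2m responses differed by -0.39 (adjusted p = 0.00408). TFAM, which packages mitochondrial DNA and starts its transcription, was not called in any comparison (41.5 ± 1.35, 40.0 ± 5.64, 35.7 ± 0.349 and 33.5 ± 0.606 CPM in the 4 groups in the order above), nor was the mitochondrial RNA polymerase POLRMT.

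Of 10 nuclear regulators tested, 1 was higher and 5 lower at 7dpa in the wild type, and 6 were lower in the mutant (medians -0.41 and -0.34). PPARGC1A, a coactivator of genes for mitochondria, was at 40.2 ± 4.50 CPM in WT sham, 16.2 ± 2.69 CPM in WT 7dpa, 16.5 ± 0.507 CPM in mvp mutant sham and 11.7 ± 0.694 CPM in mvp mutant 7dpa. It was lower with injury in the wild type (-1.31, adjusted p = 8.9e-07) and in the mutant (-0.50, adjusted p = 0.00869), and lower in the mutant after sham surgery (-1.28, adjusted p = 1.48e-06). perm1b, by name a relative of the muscle regulator PERM1, followed the same order, at 439.8 ± 12.4, 258 ± 41.8, 294 ± 7.22 and 244 ± 7.87 CPM. NRF1 was lower at 7dpa in the wild type (-0.52, and -0.13 and not called by library totals alone) and ppargc1b in both genotypes (-0.84 in the wild type and -1.14 in the mutant), while GABPA was not called in any comparison. SLC25A5, an ADP/ATP carrier of the inner membrane, fell in the wild type (-0.88, adjusted p = 3.48e-06) and in the mutant (-0.29, adjusted p = 0.0323), from 10246 ± 1308 to 5554 ± 123 CPM and from 8968 ± 634 to 7341 ± 301 CPM. Its list of carriers for ATP and ions had 2 of 7 higher and 5 lower in the wild type and 4 lower in the mutant (medians -0.54 and -0.29). Of 75 genes of the mitochondrial ribosome, 9 were higher and 22 lower in the wild type and 28 lower in the mutant (medians -0.13 and -0.21). Of 27 assembly factors of complexes III and IV, 3 were higher and 8 lower in the wild type and 15 lower in the mutant (medians -0.15 and -0.32). Of 24 import genes, 4 were higher and 4 lower in the wild type and 5 lower in the mutant (medians 0.06 and -0.16). These counts use TMM and share its dependence on the scaling: by library totals alone the calls of PPARGC1A, perm1b and SLC25A5 in the mutant were lost, while those of TWNK, mterf3, MTERF4, PPARGC1A and SLC25A5 in the wild type held. Between genotypes at 7dpa, PPARGC1A (-0.47, adjusted p = 0.0148) and ppargc1b (-0.77, adjusted p = 0.000413) were lower in the mutant. SLC25A5 was higher there (0.40, adjusted p = 0.00839), and these calls held by library totals alone. In that comparison 0 of the 10 regulators were higher and 2 lower, and 3 of the 7 carriers were higher and 1 lower. Of all genes, 8.94% were higher and 10.6% lower.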

How the data were processed

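RNA was measured in 12 libraries from zebrafish ventricles, 3 in each of 4 groups taken from the sample labels. Per the labels and the study's methods, libraries were made with a NEBNext kit for low input, sequenced on a NovaSeq instrument, and the authors used bcl2fastq, FastQC 0.11.8, HISAT2 2.1.0 on GRCz11, SAMtools 1.10 and featureCounts 1.6.0. The Ensembl release and the strand setting of the counting are not given in the sources used here. The deposited values are whole-number counts per gene, not normalized, for 32520 Ensembl genes. Symbols were matched by identifier for 29201 of these, and 3319 stayed without, so a member without a symbol would be missed. Library totals had a median of 22223910.5 counts.

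Genes were filtered with filterByExpr and tested with edgeR 4.0.16 (quasi-likelihood, R 4.3.3, limma 3.58.1) on TMM-scaled library sizes with a mean for each group, over all 12 libraries, which share an estimate of the spread. Calls were made at a Benjamini-Hochberg adjusted p under 0.05 over 16604 genes. Shares and ratios used the raw counts. The floor of 3 counts covers counting error only. Members and gene lists were chosen with earlier results of these data known. Genes named are all mitochondrially encoded members, in each comparison the 3 called nuclear members with the largest rise and the 3 with the largest fall, and a set of catalytic subunits and isoform families, of which 1 gene is not reported here. NDUFAF1, the COX5B copy ENSDARG00000068738, ENSDARG00000113254 and genes of the lists were named after their values were seen. Alternatives were DESeq2 1.42.0 (size factors, Wald test), library totals alone, other filters, removal of the mitochondrial genes, a replicate block, only the groups compared, a minimum log2 fold change of 0.5, another denominator for the nuclear share, and leaving out each library. Samples with the same replicate number did not deviate together (correlations of -0.035 to 0.060), and the numbers were not used as pairs.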

Additional observations from a re-analysis of the deposited data

Results flagged for a closer look

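The response to injury differed between wild-type and mvp mutant hearts, by edgeR's test of the interaction (adjusted p under 0.05), for the following genes that the report names. Values are log2 differences, the fold change in the mutant minus that in the wild type, over 3 libraries in each group. Among the mitochondrially encoded genes they were 0.68 for MT-ND1, 1.0 for MT-ND2, 0.78 for MT-ND3, 0.86 for MT-ND4, 0.72 for mt-nd4l and 0.60 for MT-ND6 in complex I, 0.53 for MT-CO1, 0.54 for MT-CO2 and 0.44 for MT-CO3 in complex IV, and 0.71 for MT-ATP6 in complex V. All 10 were above 0. Between genotypes, with all libraries, 13 of the 13 mitochondrially encoded genes were called lower in the mutant after sham surgery and 0 were called at 7dpa. Of all genes, 49.5% and 19.5% were called in these comparisons.

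Nuclear members above 0 were NDUFB7 (1.95), NDUFS8 (1.71), NDUFAF3 (1.05), SDHD (ENSDARG00000055712, 1.05) and uqcrc2a (0.47). Those below 0 included the complex IV genes COX5B (ENSDARG00000015978, -1.78), cox6b1 (-1.25), cox6a1 (-1.23), cox8a (-1.04), cox4i1l (-0.83) and COX7A2L (-0.39). Also below 0 were NDUFAF8 (-1.78), cycsb (-0.76), atp5mc1 (-0.69), UQCRC1 (-0.44), SDHD (ENSDARG00000030139, -0.35) and SDHB (-0.26). The list of genes below 0 is partial, as 16 nuclear members were called there. In this test 35.0% of all genes were called. The differences for MT-ND6, SDHB, COX7A2L and both SDHD genes lost their call when some single libraries were left out, 11, 8, 6, 7 (ENSDARG00000030139) and 9 (ENSDARG00000055712) of the 12.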

How the results depend on the processing

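The ratio of mitochondrial to nuclear counts needs no scaling, and the fall of the mitochondrially encoded genes with injury in the wild type (13 called) and their lower level in mvp mutant sham hearts (13 called) numbered 12 or 13 calls under every alternative run, except for 10 after sham surgery with a log2 fold change of at least 0.5 required too. Their interaction gave 9 to 13. Counts of nuclear calls depended on the settings. By library totals alone they went from 42 to 19 in the mutant response, from 7 to 17 between genotypes at 7dpa and from 21 to 32 in the interaction, and from 0 to 1 for the mitochondrially encoded genes at 7dpa. With only the groups compared they went from 42 to 69 in the mutant response, from 21 to 42 between genotypes after sham surgery and from 7 to 2 at 7dpa, and from 2 to 7 for the mitochondrially encoded genes in the mutant response. With a log2 fold change of at least 0.5 required too, 19, 13, 10 and 3 nuclear calls remained in the wild-type response, the mutant response, and between genotypes after sham surgery and at 7dpa, and 0 of the mitochondrially encoded genes in the mutant response, where the 2 called by edgeR fell by less. Leaving out each library gave 36 to 73, 29 to 63, 15 to 44, 3 to 20 and 13 to 40 nuclear calls in the 5 comparisons (wild-type response, mutant response, genotype after sham surgery, genotype at 7dpa, interaction), and 0 to 7 and 0 to 3 mitochondrially encoded calls in the mutant response and between genotypes at 7dpa. The highest counts came without WT 7dpa replicate 1. The shares of all genes called in these fits are not given here. With the counts of nuclear genes as denominator the nuclear share was 4.73% in WT sham, 5.25% in WT 7dpa, 4.68% in mvp mutant sham and 4.50% in mvp mutant 7dpa. Called values of members were followed through the alternatives only in comparisons for which the naming rule took the gene, 113 values. Other called values in the text were not followed in this way. Among them were NDUFS8 and NDUFAF3 in the mutant response, SDHAF2 at 7dpa, and cox6b1 and NDUFAF8 in the wild-type response. Of the 113 values, 4 changed sign by library totals alone, all for injury: cox4i1l in the mutant (0.024) and atp5if1a (0.0019), SDHB (0.15) and NDUFA4 (0.0171) in the wild type. A further 20 lost their call there, 7 with only the groups compared, 4 without a filter, 3 with the replicate block and 1 with DESeq2's Wald test. Leaving out single libraries ended 25 of the 113 in at least 1 fit and reversed 0. They were, beside those given above, COX7A2 (ENSDARG00000110700), atp5if1a, mt-atp8 and NDUFA4 in the wild-type response, MT-CO1, MT-CYB, atp5if1b, cox4i1l, CYC1, ATP5F1B and NDUFA4L2 in the mutant, UQCRFS1, cox7a1, ndufb3, MT-ND3 and NDUFA4L2 after sham surgery, and ndufv3, atp5mc1 and UQCRC1 at 7dpa, with UQCRC1, MT-ND6, COX7A2L and both SDHD genes in the interaction. The cause was not tested. With the replicate number as a block, nuclear calls were 40, 38, 18, 7 and 20, and mitochondrially encoded calls 13, 2, 13, 0 and 10, in the order of the 5 comparisons. The planned search for promoter motifs was not run.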
